A study of Arabidopsis thaliana with 12 samples.

Results

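The response of dark-grown wild-type *Arabidopsis thaliana* to lincomycin was read from the 6 WT libraries among the 12 libraries of the series. They were chosen by their labels alone. The groups were WT dark linc, which was 3-day-old etiolated Columbia seedlings grown in darkness on medium with 0.5 mM lincomycin, and WT dark, grown the same way on medium with no drug. Each had 3 biological replicates of whole seedlings, and all 6 libraries carried every PIF gene. The other 6 libraries came from *pifq*, a mutant of the same background without functional PIF1, PIF3, PIF4 and PIF5, grown under the same conditions with lincomycin (*pifq* dark linc) or without it (*pifq* dark), and they enter only where a response was compared between genotypes. All seeds had been given 3 h of white light to start germination, and the medium held no sucrose.

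Lincomycin binds the bacterial-type ribosome of plastids and stops plastids from making their own proteins, while cytosolic translation goes on. In darkness, seedlings hold etioplasts, which contain protochlorophyllide, its reductase and a prolamellar body, and PIF transcription factors keep most photosynthesis genes of the nucleus at a low level. Plastids whose gene expression is blocked send retrograde signals that lower nuclear genes for photosynthesis proteins, and the GLK factors are among the known targets of this route. Most plastid proteins are encoded in the nucleus and imported, and the plastid genome itself is read by a bacterial-type polymerase with a set of nuclear-encoded associated proteins and by phage-type polymerases.

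The values are reads counted by the authors on the 3′ end of each transcript, and levels are given as normalized CPM, which are counts per 1000000 counts of a library after scaling with edgeR's TMM factors. The WT dark linc libraries held between 11904156 and 17376719 counts and the WT dark libraries between 12557224 and 17612505. A level of 3 counts, taken as the floor, was between 0.170 and 0.252 CPM of the library total over the 6 libraries, and it covers counting error only, since amplified reads are not independent molecules. Replicate 2 of WT dark stood apart from the other WT dark libraries, with a mean chi-square per gene of 23.0 and 15.6 against them, where the other pairs within a group were between 8.02 and 11.4. Where the number of called members of a list changes without it, both numbers are given. The 3 markers of etiolated seedlings were present in all 6 libraries, at a summed level of 1002 to 1076 CPM in WT dark linc and of 1503 to 1967 CPM in WT dark. The protochlorophyllide reductase *PORA* was SSTF repressed among them by the limits defined in the next paragraph, whereas the other 2 were not called, with *PHYA* (phytochrome A) between 358 and 419 CPM in WT dark linc and between 416 and 455 CPM in WT dark, and *PIF3* between 122 and 134 CPM in WT dark linc and between 103 and 121 CPM in WT dark. All 5 root hair markers were above the floor in every library, with a summed level of 5.29 to 9.23 CPM in WT dark linc and of 5.34 to 7.45 CPM in WT dark. In whole seedlings, fewer cells of a type and less RNA per cell cannot be told apart.

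Under lincomycin, genes of photosynthesis were lower by large factors in WT, and a smaller group of genes was higher by smaller ones. The latter included 4 of the 11 tested genes listed for proteins associated with the plastid RNA polymerase. Of the 13455 genes tested, 135 were repressed and 73 were induced statistically significantly and by at least 2-fold (SSTF, an adjusted p of at most 0.01 by edgeR's quasi-likelihood test), which is 1.00% and 0.543% of the genes tested. The 135 repressed genes had a median change of 3.06-fold, and 42 of them changed at least 4-fold. The 73 induced genes had a median change of 2.27-fold, and 3 changed at least 4-fold. Together, the repressed genes took 1.01% ± 0.03 of all counts in WT dark linc and 3.41% ± 0.37 in WT dark (SD, n = 3), and the induced genes took 0.195% ± 0.009 in WT dark linc and 0.0831% ± 0.0090 in WT dark. The 3 WT dark linc libraries did not overlap the 3 WT dark libraries for any of these 208 genes, as for 22.9% of all genes tested. Without WT dark replicate 2 the numbers were 195 repressed and 99 induced, of which 129 and 69 were among those called on all libraries. The induced number was 48 without WT dark linc replicate 2, 44 without WT dark linc replicate 3 and 48 without WT dark replicate 1.

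At the milder limit of an adjusted p of at most 0.05 (SS), 392 genes were repressed and 426 induced, or 2.91% and 3.17% of the genes tested. These 2 numbers moved much more with single libraries. Without WT dark replicate 2 they were 1388 and 1315 of the 13398 genes tested then. Counts of list members from that fit are to be read beside these larger numbers. Without WT dark replicate 3, the SS genes numbered 203 and 206. They were 234 and 208 without WT dark linc replicate 2, 232 and 157 without WT dark linc replicate 3, and 317 and 230 without WT dark replicate 1. Over all genes tested, the log2 fold changes had a median of −0.00.

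The sharpest fall was in *CA1* (AT3G01500), a carbonic anhydrase of the chloroplast stroma. It had 3.38, 3.74 and 5.32 CPM in WT dark linc, against 118, 146 and 137 CPM in WT dark. The groups were far apart, and the level was 31.7-fold lower under lincomycin (log2 fold change −4.98, standard error 0.18, edgeR adjusted p = 1.78e-10). *AT5G48490*, annotated as a lipid-transfer protein, was close to the floor under lincomycin, with 0.577, 0.545 and 1.17 CPM in WT dark linc and 13.1, 17.57 and 14.6 CPM in WT dark (log2 fold change −4.22, standard error 0.25, edgeR adjusted p = 2.81e-08). The plot shows the 10 largest changes in each direction, taken among SSTF genes whose groups do not overlap. The spread within groups differed among these genes, and *LHCB1.3* lay between 1304 and 2938 CPM in WT dark.

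**Figure D1:**
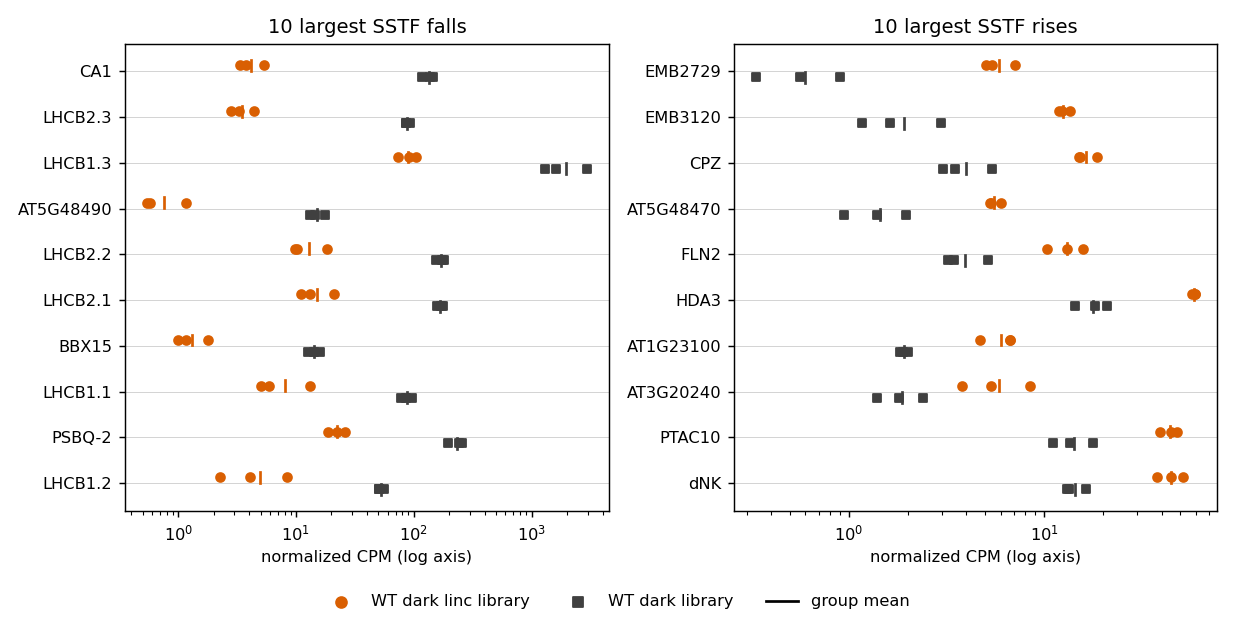
Normalized CPM on a log axis of the 10 SSTF genes with the largest falls (left) and the 10 with the largest rises (right), with each WT dark linc library as a circle above each WT dark library as a square, and short bars at group means. Genes were picked among those whose groups do not overlap, so the separation of all 20 follows from the choice. *CA1* lies between 3.38 and 5.32 CPM under lincomycin, and the WT dark means of the induced genes between 0.599 and 17.83 CPM.

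Light-harvesting chlorophyll-binding proteins, which form the antennae of photosystem II (LHCB) and photosystem I (LHCA), made up the list with the lowest median. Of 21 listed genes 20 were tested, 19 were SS-repressed, 17 were SSTF and none was induced. Their median log2 fold change was −2.45, and their summed level was 1060 ± 100 CPM in WT dark linc and 6573 ± 1057 CPM in WT dark (SD, n = 3), 6.20-fold lower under lincomycin. Without WT dark replicate 2, 19 of 19 tested were SS-repressed.

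The most negative values of the family were those of the *LHCB2* genes and of all *LHCB1* genes but *LHCB1.4*, which encode the major antenna of photosystem II. *LHCB2.3* (AT3G27690) had 2.80, 3.27 and 4.45 CPM in WT dark linc and 85.6, 86.2 and 92.5 CPM in WT dark. Its level was 24.6-fold lower (log2 fold change −4.62, standard error 0.17, edgeR adjusted p = 1.78e-10). *LHCB2.2* (AT2G05070) had 9.89, 10.12 and 18.4 CPM in WT dark linc and 153, 182 and 173 CPM in WT dark (log2 fold change −3.71, standard error 0.21, edgeR adjusted p = 1.55e-08). The nearby copy *LHCB2.1* shares a near-identical 3′ end with it, so that the counting could have split their reads, and changed by −3.45 on the log2 scale.

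*LHCB1.1*, *LHCB1.2* and *LHCB1.3* lie next to each other on a chromosome and also have 3′ ends similar, by the same limit, to those of other *LHCB1* copies. *LHCB1.3* (AT1G29930) had the highest WT dark mean of the SSTF repressed genes, although *PORB* was higher in WT dark replicates 1 and 3. Levels of *LHCB1.3* were 73.4, 91.0 and 104 CPM in WT dark linc against 1304, 2938 and 1596 CPM in WT dark, where replicate 2 was the highest (log2 fold change −4.44, standard error 0.27, edgeR adjusted p = 3.09e-08). *LHCB1.1* and *LHCB1.2* changed by −3.41 and −3.36. *LHCB1.4* (AT2G34430) was the tested member that missed the limit. It had 6.76, 5.91 and 21.3 CPM in WT dark linc and 28.5, 25.0 and 22.2 CPM in WT dark, so that replicate 3 with lincomycin lay just under the lowest WT dark library (log2 fold change −1.11, standard error 0.33, edgeR adjusted p = 0.0600). It was SS-repressed without WT dark linc replicate 3, at −2.00 (edgeR adjusted p = 5.61e-05), and without WT dark replicate 2, at −1.12 (edgeR adjusted p = 0.00734).

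The monomeric antenna proteins were less alike. *LHCB6* (AT1G15820) had 37.8, 27.6 and 35.6 CPM in WT dark linc and 307, 315 and 319 CPM in WT dark (log2 fold change −3.22, standard error 0.14, edgeR adjusted p = 2.03e-09). *LHCB5* changed by −2.56, *LHCB4.2* by −2.27 and *LHCB4.1* by −1.23. Among antenna genes of photosystem I, *LHCA2* (AT3G61470) changed most, with 20.4, 21.9 and 21.5 CPM in WT dark linc and 126, 138 and 149 CPM in WT dark (log2 fold change −2.70, standard error 0.13, edgeR adjusted p = 2.72e-09). The smallest changes among the SS-repressed antenna genes were those of *LHCA5* and *LHCA6*, at −0.86 and −0.94.

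Nuclear genes for the photosystems, electron carriers and the chloroplast ATP synthase also fell together. Of 38 listed genes 37 were tested, 35 were SS-repressed and 28 were SSTF, at a median of −1.71 on the log2 scale and with no member induced. All 12 photosystem I subunit genes tested were SSTF (median −2.23), as were 11 of 13 of photosystem II (median −1.69). Members for electron transport followed with 8 of 9 SS-repressed (median −0.99), and for ATP synthase 2 of 3 were SS-repressed (median −0.74). The SSTF count of 28 was 29 without WT dark replicate 2, with 5 in place of 4 for electron transport. Their summed level was 4769 ± 358 CPM in WT dark linc and 14970 ± 2149 CPM in WT dark (SD, n = 3).

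*PSBQ-2* (AT4G05180), a subunit of the oxygen-evolving complex, had 18.5, 25.8 and 22.3 CPM in WT dark linc and 194, 254 and 243 CPM in WT dark, and was 10.4-fold lower (log2 fold change −3.37, standard error 0.16, edgeR adjusted p = 2.72e-09). *PSAE-1* (AT4G28750), on the stromal side of photosystem I, had 41.7, 37.5 and 42.6 CPM in WT dark linc and 308, 319 and 341 CPM in WT dark (log2 fold change −2.99, standard error 0.13, edgeR adjusted p = 1.45e-09). *PSAK* and *PSAH2*, which lie where the antenna docks, changed by −3.13 and −2.75. The genes for plastocyanin, the soluble copper carrier between cytochrome b6f and photosystem I, fell unequally. *PETE2*, the more abundant one, had 614, 769.8 and 671 CPM in WT dark linc and 1297, 2081 and 1617 CPM in WT dark (log2 fold change −1.28, standard error 0.17, edgeR adjusted p = 0.000130), and *PETE1* changed by −2.31. The tested members that were not SS were *PGR5*, of cyclic electron flow, at −0.25 (edgeR adjusted p = 0.379) and *PDE334*, an ATP synthase subunit, at −0.44 (edgeR adjusted p = 0.146).

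**Figure D2:**
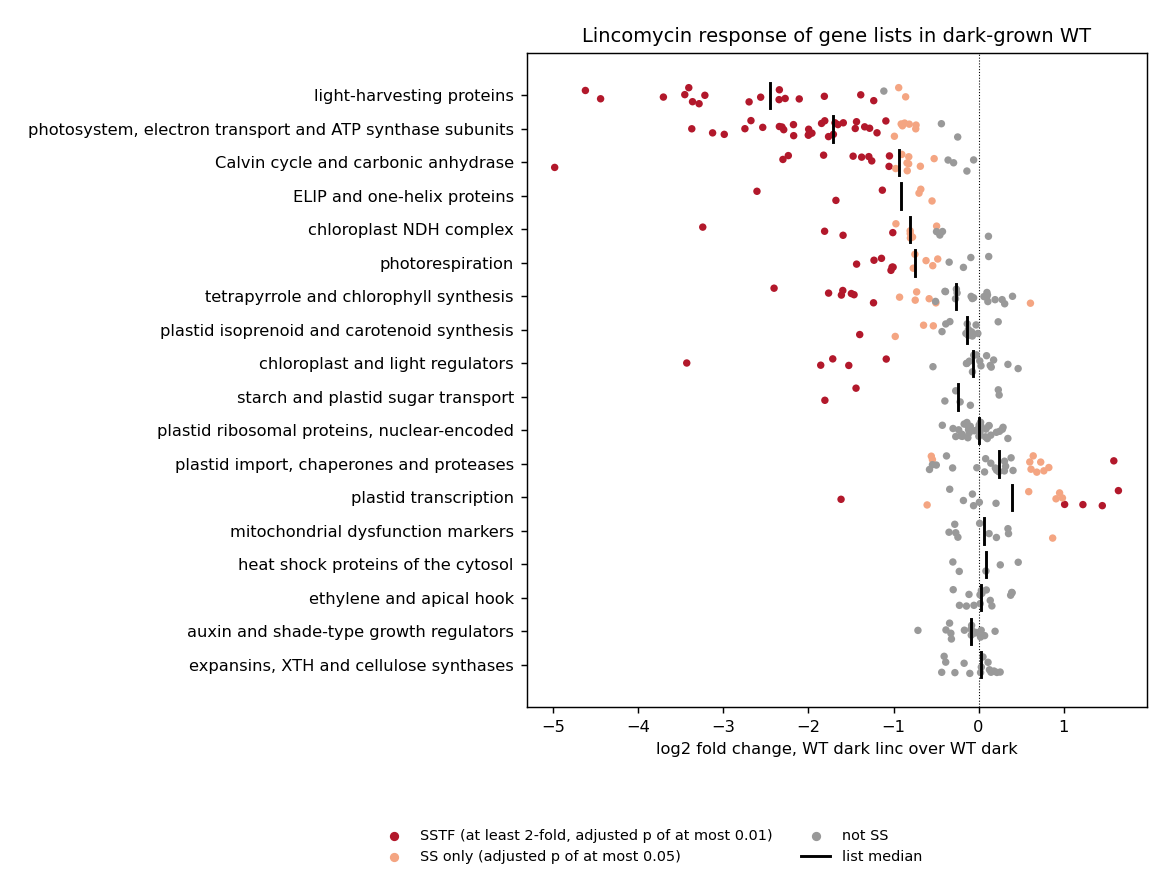
Log2 fold changes of WT dark linc over WT dark for the tested members of 18 gene lists, 1 point a gene, with colours for SSTF, SS and neither, and a black bar at each list's median. Antenna genes lie furthest to the left (median −2.45), plastid ribosomal proteins centre on 0.00, and the plastid transcription list has SSTF members on either side.

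The chloroplast NADH dehydrogenase-like complex, which feeds electrons back around photosystem I, had 10 of 14 tested nuclear members SS-repressed (11 without WT dark replicate 2) and 4 SSTF, at a median of −0.80. *CRRL* (AT5G21430) led them, with 0.495, 0.778 and 1.35 CPM in WT dark linc and 7.57, 9.44 and 9.30 CPM in WT dark (log2 fold change −3.24, standard error 0.27, edgeR adjusted p = 1.37e-06). *NDF4*, *NDF6* and *NDF1* changed by −1.81, −1.59 and −0.97. *PNSL5* was the tested member with a higher level under lincomycin, at 0.12 (edgeR adjusted p = 0.607).

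Carbon fixation genes had a less negative median than those of light capture. Calvin cycle genes and the carbonic anhydrases had 18 of 22 tested members SS-repressed (19 without WT dark replicate 2) and 10 SSTF, with a median of −0.94. The 4 genes for the small subunit of Rubisco covered a wide range. *RBCS2B* (AT5G38420) had 137, 113 and 132 CPM in WT dark linc and 586, 613 and 682 CPM in WT dark (log2 fold change −2.30, standard error 0.13, edgeR adjusted p = 2.05e-08). *RBCS1A* (AT1G67090) had 576, 656 and 679 CPM in WT dark linc and 1107, 1489 and 1370 CPM in WT dark (log2 fold change −1.05, standard error 0.14, edgeR adjusted p = 0.000167). *RBCS1B* and *RBCS3B* changed by −1.82 and −0.84, and reads of *RBCS1A*, *RBCS2B* and *RBCS3B* could be split with similar copies. *CP12-2*, a redox-controlled linker of 2 Calvin cycle enzymes, changed by −2.24, *GAPA-2*, a glyceraldehyde-3-phosphate dehydrogenase subunit, by −1.47, and *RCA*, the Rubisco activase, by −1.29. The tested members that were not SS were *PGK1*, *TIM*, *TKL1* and *CP12-3*, at −0.36, −0.06, −0.29 and −0.14.

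Photorespiration, which salvages the product of Rubisco's oxygenase reaction across chloroplast, peroxisome and mitochondrion, had 11 of 15 members SS-repressed and 6 SSTF, at a median of −0.75. The count of 11 was 7 without WT dark linc replicate 3, and without WT dark replicate 2 there were 5 SSTF members and 1 SS-induced one. *HPR*, the peroxisomal hydroxypyruvate reductase, changed by −1.43 (edgeR adjusted p = 4.09e-06), *GGT1*, a peroxisomal aminotransferase, by −1.23 (edgeR adjusted p = 4.98e-05), and *SHM1*, the mitochondrial serine hydroxymethyltransferase, was 2.01-fold lower (edgeR adjusted p = 7.03e-05). Its levels were 115, 127 and 120.2 CPM in WT dark linc and 218, 245 and 263 CPM in WT dark. These 3 genes encode enzymes outside the plastid.

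In tetrapyrrole and chlorophyll synthesis the fall was selective. Of 31 members, all tested, 12 were SS-repressed, 7 of them SSTF, and 1 was SS-induced, with a median of −0.27. *GUN4* (AT3G59400), which stimulates magnesium chelatase, had 8.57, 10.7 and 8.48 CPM in WT dark linc and 37.7, 56.9 and 52.6 CPM in WT dark (log2 fold change −2.40, standard error 0.17, edgeR adjusted p = 1.96e-07). *GUN5* (AT5G13630), the large subunit of that enzyme, had 57.1, 71.7 and 63.9 CPM in WT dark linc and 181, 254 and 220.2 CPM in WT dark (log2 fold change −1.76, standard error 0.15, edgeR adjusted p = 1.12e-06). The other subunits stayed closer to their WT dark level, with *CHLI1* at −0.40 (edgeR adjusted p = 0.0781) and *CHLD* at −0.07 (edgeR adjusted p = 0.754).

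Late steps of the chlorophyll branch fell as well. *CRD1*, of the cyclase step, changed by −1.61, *GGR*, which makes the phytyl chain, by −1.60, and *CAO*, which makes chlorophyll b, by −1.50. The light-dependent protochlorophyllide reductases, the main proteins of the prolamellar body, differed among themselves. *PORB* (AT4G27440) had 614, 637 and 760.0 CPM in WT dark linc and 1509, 2100 and 1939 CPM in WT dark (log2 fold change −1.46, standard error 0.15, edgeR adjusted p = 1.11e-05). *PORA* (AT5G54190), the form of etiolated seedlings and 1 of the 3 markers for them, had 449, 581.8 and 526 CPM in WT dark linc and 945, 1430 and 1291 CPM in WT dark (log2 fold change −1.24, standard error 0.16, edgeR adjusted p = 0.000133). *PORC* changed by −0.50 (edgeR adjusted p = 0.0223). At the head of the pathway, *HEMA1*, the regulated glutamyl-tRNA reductase, changed by −0.93 (edgeR adjusted p = 0.000120), whereas *GSA1*, the next enzyme, was at 0.40 (edgeR adjusted p = 0.114). *HY2*, which makes the phytochrome chromophore, was the SS-induced member at 0.61 (edgeR adjusted p = 0.0232), and it was not SS in 4 of the 6 fits that left out a library, while 3 members were SS-induced and 13 SS-repressed without WT dark replicate 2. The 4 fits were those without WT dark linc replicate 1 or 3 and without WT dark replicate 1 or 3.

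Carotenoid and plastid isoprenoid synthesis had 4 of 17 tested members SS-repressed and none induced, at a median of −0.13. *PSY* (AT5G17230), phytoene synthase, which commits precursors to carotenoids, had 8.99, 10.6 and 10.001 CPM in WT dark linc and 22.03, 25.0 and 30.97 CPM in WT dark (log2 fold change −1.40, standard error 0.15, edgeR adjusted p = 2.45e-05). *CLA1*, of the plastid isoprenoid pathway, changed by −0.98 (edgeR adjusted p = 0.000118). The other called members were weaker, *LUT5* at −0.65 (edgeR adjusted p = 0.00664, and 0.0521 without WT dark replicate 3) and *BETA-OHASE1* at −0.53 (edgeR adjusted p = 0.0482), which was SS only without WT dark replicate 2 among the fits that left out a library. The count of 4 was 2 without WT dark replicate 3 and 5 without WT dark replicate 2.

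**Figure D3:**
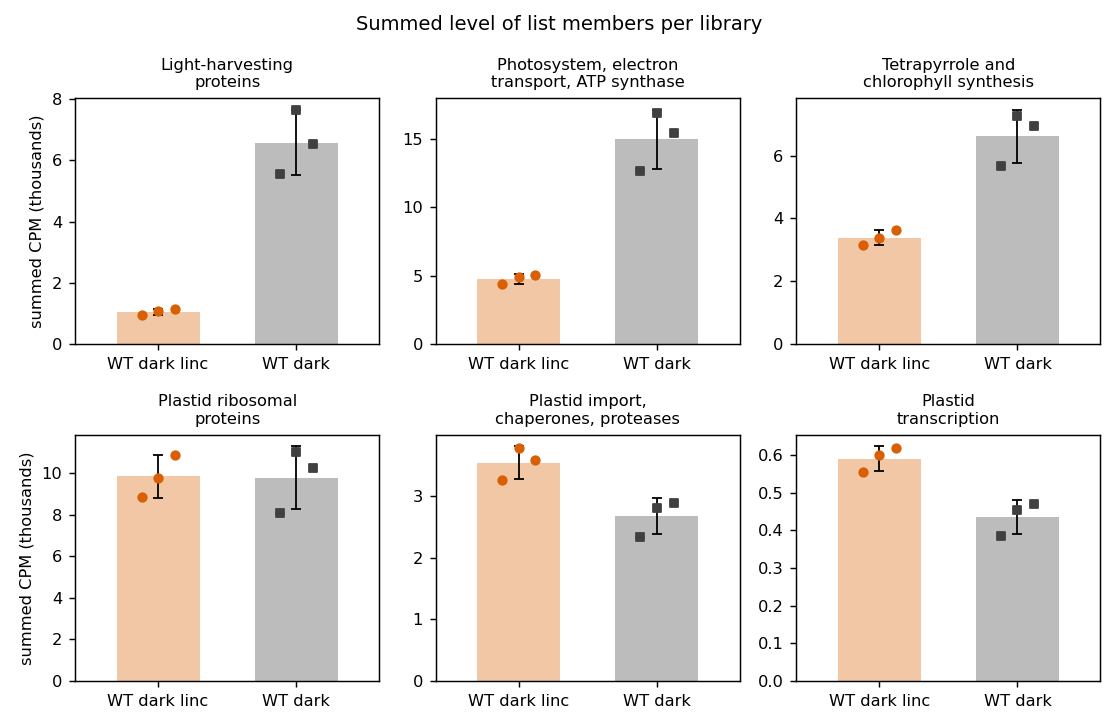
Summed normalized CPM (in units of 1000 CPM) of the members of 6 gene lists in each library, with bars for the mean and error bars for the SD of 3 libraries, WT dark linc left of WT dark. Antenna genes stand at 1060 CPM against 6573 CPM, plastid ribosomal proteins overlap between groups, and the plastid transcription list is higher in every WT dark linc library.

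Regulators of chloroplast genes were few among the repressed genes and fell by 2-fold or more. Of 20 regulators tested 5 were SS-repressed, all of them SSTF, and none was induced. Without WT dark replicate 2, 6 were repressed and 2 induced. *BBX15* (AT1G25440), a B-box zinc finger protein, had 0.989, 1.79 and 1.17 CPM in WT dark linc and 12.7, 15.9 and 14.2 CPM in WT dark (log2 fold change −3.43, standard error 0.22, edgeR adjusted p = 4.65e-08), and *BBX14*, of the same family, changed by −1.86. *GLK1* (AT2G20570), an activator of antenna and chlorophyll genes, had 3.46, 3.11 and 3.51 CPM in WT dark linc and 12.2, 9.19 and 11.6 CPM in WT dark, and was 3.28-fold lower (log2 fold change −1.71, standard error 0.18, edgeR adjusted p = 1.35e-05). Its partner *GLK2* had 6.27, 2.96 and 6.26 CPM in WT dark linc and 11.2, 11.1 and 10.9 CPM in WT dark, 2.12-fold lower (log2 fold change −1.09, standard error 0.22, edgeR adjusted p = 0.00599). The groups of both genes were apart, and *GLK1* was the tighter under lincomycin. *HYH*, a bZIP factor related to HY5, changed by −1.53 (edgeR adjusted p = 0.000181).

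Transcripts of the PIF genes showed no called change. *PIF1* had 15.8, 17.7 and 16.5 CPM in WT dark linc and 17.7, 15.7 and 17.42 CPM in WT dark. *PIF3*, *PIF4* and *PIF5* had log2 fold changes of 0.18, 0.14 and −0.14, each with an edgeR adjusted p of 0.413, 0.655 and 0.706. *GUN1* (AT2G31400), a plastid pentatricopeptide repeat protein that acts in retrograde signalling, had 63.1, 56.6 and 53.4 CPM in WT dark linc and 58.2, 50.2 and 61.0 CPM in WT dark. The groups of *GUN1* overlapped.

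Early light-induced proteins and their relatives are stress-related thylakoid proteins that resemble antenna proteins. Their genes fell without exception, with 6 of 6 SS-repressed, 3 of them SSTF, at a median of −0.92. *ELIP2* (AT4G14690) had 7.58, 7.94 and 5.97 CPM in WT dark linc and 37.2, 50.2 and 42.8 CPM in WT dark (log2 fold change −2.61, standard error 0.16, edgeR adjusted p = 3.58e-08). *ELIP1* changed by −1.68, *OHP1* by −1.13 and *OHP2* by −0.68. Clock genes, in contrast, gave 1 SS member of 11, *ELF3* at −0.71 (edgeR adjusted p = 0.0346), which was SS in 2 of 6 fits that left out a library, without WT dark linc replicate 1 and without WT dark replicate 2. *LHY* and *CCA1*, the morning factors, were at −0.14 and −0.34 (edgeR adjusted p = 0.583 and 0.140).

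The 300 bases upstream of the annotated gene start were taken from the TAIR10.1 genome of RefSeq for 129 of the repressed and 72 of the induced SSTF genes. The 4 windows shown here overlap no other gene, and were chosen because they belong to a strongly repressed photosystem gene, an antenna gene, the regulator *GLK1* and a strongly induced gene. Capitals mark CCAATC (described as a GLK site), CACGTG (G-box, a site of PIF and other bZIP and bHLH factors), GATAAG (I-box) and TGGGCC (site II element) in either orientation.
*PSBQ-2*, minus strand, chr4:2673244-2673543: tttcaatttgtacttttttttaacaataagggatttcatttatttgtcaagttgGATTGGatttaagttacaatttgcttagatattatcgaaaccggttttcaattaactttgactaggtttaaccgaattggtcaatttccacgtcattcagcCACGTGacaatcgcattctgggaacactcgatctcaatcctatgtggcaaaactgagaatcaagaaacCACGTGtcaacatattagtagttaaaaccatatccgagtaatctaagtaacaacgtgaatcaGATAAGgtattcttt
*LHCB2.3*, plus strand, chr3:10255606-10255905: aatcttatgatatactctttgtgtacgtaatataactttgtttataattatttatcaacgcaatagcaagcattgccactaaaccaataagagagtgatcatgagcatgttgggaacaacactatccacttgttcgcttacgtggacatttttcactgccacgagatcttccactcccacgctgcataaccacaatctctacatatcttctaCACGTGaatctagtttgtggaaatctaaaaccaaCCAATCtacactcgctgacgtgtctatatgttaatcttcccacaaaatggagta
*GLK1*, plus strand, chr2:8855002-8855301: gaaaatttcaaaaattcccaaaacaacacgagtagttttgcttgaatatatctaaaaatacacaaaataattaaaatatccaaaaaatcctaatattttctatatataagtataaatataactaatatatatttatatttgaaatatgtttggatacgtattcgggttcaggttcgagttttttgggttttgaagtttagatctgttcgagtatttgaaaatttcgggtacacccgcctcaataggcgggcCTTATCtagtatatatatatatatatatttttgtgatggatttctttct
*AT1G23100*, plus strand, chr1:8195476-8195775: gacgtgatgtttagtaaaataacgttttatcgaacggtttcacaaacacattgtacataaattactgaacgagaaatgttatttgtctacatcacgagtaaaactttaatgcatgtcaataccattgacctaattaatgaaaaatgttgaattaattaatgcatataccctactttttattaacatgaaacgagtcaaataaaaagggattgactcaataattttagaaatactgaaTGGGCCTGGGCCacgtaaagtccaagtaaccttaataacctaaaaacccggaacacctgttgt
In the *PSBQ-2* window, G-boxes begin 145 and 77 bases before the gene start, the GLK site begins at 246 in inverse orientation and an I-box at 15. The *LHCB2.3* window has a G-box at 88 and CCAATC at 54, the *GLK1* window has an I-box at 49 in inverse orientation, and *AT1G23100* has TGGGCC at 63 and again, directly after it, at 57.

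Motif letters were counted on both strands. CCAATC was in 20.9% of windows of repressed genes and 16.7% of windows of induced genes, against 12.6% of all genes tested. In the 20 antenna genes tested it was in 10 windows, and CACGTG and GATAAG were each in 4. In the 37 tested genes for photosystems, electron transport and ATP synthase, CCAATC was in 8 windows. CACGTG, which reads the same on both strands, was in 18.6% of repressed, 8.33% of induced and 8.15% of all tested windows, and GATAAG was in 22.5%, 11.1% and 15.0% of the same sets. The evening element AAAATATCT was in 2.33%, 4.17% and 2.80% of them, the W-box form TTGACC in 17.83%, 13.9% and 13.9%, and the core of the mitochondrial dysfunction motif in 13.95%, 12.5% and 8.27%. Of the 20 antenna windows, AAAATATCT was in 1, TTGACC in 2 and the mitochondrial core in 5. The other 2 motifs, TGGGCC and the telo-box, were counted after the induced genes had been seen. TGGGCC was in 12.4% of repressed, 34.7% of induced and 18.8% of all tested windows, and the telo-box AAACCCTA in 0.775%, 11.1% and 4.095%. These are shares of letter matches, with no test, and a match is not a bound site.

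Genes for proteins that work with the plastid's own RNA polymerase were among the induced ones. In the plastid transcription list, 8 of 16 tested members were SS-induced, 4 of them SSTF, while 2 were SS-repressed, 1 of them SSTF. The repressed count was 1 in each fit without another library than WT dark replicate 2, and 3 of 15 tested without that one, 1 of them a polymerase-associated protein. By role, 8 of 11 polymerase-associated proteins were SS-induced (median 0.95), and the 2 repressed members were sigma factors. The list took 591 ± 32.4 CPM in WT dark linc and 436 ± 44.96 CPM in WT dark (SD, n = 3), with no overlap between groups.

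*PTAC10* (AT3G48500), a polymerase-associated RNA-binding protein, had 39.2, 48.2 and 44.7 CPM in WT dark linc and 11.1, 17.9 and 13.7 CPM in WT dark, 3.13-fold higher (log2 fold change 1.64, standard error 0.16, edgeR adjusted p = 7.06e-06). The fructokinase-like subunits *FLN1*, a member of the list, and *FLN2*, which was outside it, rose alike. *FLN1* (AT3G54090) had 40.7, 41.2 and 46.7 CPM in WT dark linc and 14.5, 15.7 and 16.8 CPM in WT dark (log2 fold change 1.46, standard error 0.13, edgeR adjusted p = 1.84e-06), and *FLN2* (AT1G69200) had 10.4, 13.1 and 15.8 CPM in WT dark linc and 3.23, 5.17 and 3.47 CPM in WT dark (log2 fold change 1.76, standard error 0.21, edgeR adjusted p = 5.18e-05). *HMR* (AT2G34640), a protein of plastids and the nucleus needed for phytochrome signalling, had 75.5, 87.3 and 105 CPM in WT dark linc and 28.99, 47.2 and 38.5 CPM in WT dark. Smaller rises were those of *PTAC3* at 0.91, the thioredoxin *TRXZ* at 0.99 and the iron superoxide dismutases *FSD2* and *FSD3* at 0.95 and 1.01.

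Sigma factors, which direct the bacterial-type polymerase to its promoters, did not follow. *SIG1* (AT1G64860) had 4.53, 4.12 and 6.14 CPM in WT dark linc and 13.2, 16.99 and 15.9 CPM in WT dark (log2 fold change −1.62, standard error 0.18, edgeR adjusted p = 2.36e-05). *SIG4* was at −0.60 (edgeR adjusted p = 0.0453), and was SS among the fits that left out a library only without WT dark replicate 2. *SIG2* and *SIG6* were at −0.07 and 0.01 (edgeR adjusted p = 0.807 and 0.980). *SCA3* (AT2G24120), the phage-type RNA polymerase of plastids, was outside the list and among the SSTF induced genes, with 7.09, 6.38 and 6.55 CPM in WT dark linc and 2.73, 3.37 and 2.86 CPM in WT dark. It is named here after its values were seen.

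Among plastid import components, chaperones and proteases, 8 of 27 members tested were SS-induced and 2 SS-repressed, at a median of 0.24. Chaperones gave 6 of the induced members, of 9 tested, and import 2, of 7 tested. The count of 8 was 10 without WT dark replicate 2, of them 3 for import and 1 protease, 3 without WT dark linc replicate 2 and 5 without WT dark linc replicate 3 or without WT dark replicate 1, and the count of 2 was 7 without WT dark replicate 2, 1 without WT dark linc replicate 3 and 0 without WT dark replicate 3. *HSP90C* (AT2G04030), the Hsp90 of the chloroplast stroma, led with 33.5, 32.5 and 37.8 CPM in WT dark linc and 10.3, 13.4 and 10.98 CPM in WT dark, 3.01-fold higher (log2 fold change 1.59, standard error 0.14, edgeR adjusted p = 1.99e-06). *TIC40*, a co-chaperone at the inner envelope, changed by 0.83, and the chaperonin genes *CPN60B2* and *CPN20* by 0.68 and 0.77. *CPN20* had 750.3, 962 and 827 CPM in WT dark linc and 404, 551 and 537 CPM in WT dark (edgeR adjusted p = 0.00457, and 0.0501 without WT dark linc replicate 2). The repressed members were *FTSH2* and *FTSH5*, thylakoid proteases of photosystem II repair, at −0.56 and −0.54.

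Nuclear genes for plastid ribosomal proteins gave a different picture. None of the 36 was SS in either direction by edgeR's quasi-likelihood test, by DESeq2 or by edgeR's exact test. At an unadjusted p under 0.05, 2 were lower and 2 higher. The median was 0.00 and the range from −0.43 to 0.34 on the log2 scale, and the summed level was 9853 ± 1026 CPM in WT dark linc and 9788 ± 1512 CPM in WT dark (SD, n = 3). *RPL29*, the most abundant of them in WT dark, had 886, 997 and 1126 CPM in WT dark linc and 793, 1140 and 1011 CPM in WT dark. The libraries of the groups were interleaved. Without WT dark replicate 2, 3 large-subunit genes were SS-induced.

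Genes low in WT dark were tested only where their lincomycin libraries reached the filter of 5 CPM. The low WT dark levels of the genes with the largest rises are therefore set in part by that filter. In the same way, genes low under lincomycin, such as *GLK1*, *BBX15*, *CRRL* and *LHCB2.3*, were tested only because their WT dark libraries reached it. *EMB2729* (AT3G20440), needed for embryo development, had 5.44, 7.08 and 5.03 CPM in WT dark linc and 0.334, 0.903 and 0.560 CPM in WT dark, 10.13-fold higher (log2 fold change 3.34, standard error 0.31, edgeR adjusted p = 4.09e-06). *EMB3120* (AT3G14900), another gene found by its embryo phenotype, had 11.9, 12.3 and 13.5 CPM in WT dark linc and 1.17, 2.96 and 1.62 CPM in WT dark (log2 fold change 2.78, standard error 0.24, edgeR adjusted p = 1.95e-06). *CPZ* (AT2G04530), a tRNase Z of chloroplasts, had 15.2, 18.7 and 15.3 CPM in WT dark linc and 3.51, 3.04 and 5.43 CPM in WT dark, 4.03-fold higher. These 3 genes were the ones that rose at least 4-fold.

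Other members of the 10 largest rises changed by 1.64 to 1.98 on the log2 scale. *HDA3* (AT3G44750), a plant-specific histone deacetylase found in the nucleolus, was the most abundant of them, with 57.0, 59.7 and 59.2 CPM in WT dark linc and 14.4, 20.9 and 18.1 CPM in WT dark. *dNK* (AT1G72040), a deoxynucleoside kinase, had 37.8, 51.5 and 44.6 CPM in WT dark linc and 13.2, 16.5 and 13.4 CPM in WT dark. *AT1G23100*, annotated as a GroES-like protein, had 4.70, 6.69 and 6.67 CPM in WT dark linc and 1.84, 1.89 and 2.02 CPM in WT dark. *AT3G20240*, a mitochondrial substrate carrier, had 3.79, 8.48 and 5.38 CPM in WT dark linc and 2.39, 1.81 and 1.4001 CPM in WT dark, and *AT5G48470* changed by 1.98. *EMB2729*, *AT1G23100* and *AT3G20240* had too few counts to be tested in 2 of the 6 fits that left out a library and were SS in the other 4. *AT4G12600*, of a ribosomal protein family that includes box C/D snoRNP proteins, was the most abundant induced SSTF gene, with 115, 121 and 138 CPM in WT dark linc and 47.5, 55.9 and 59.98 CPM in WT dark.

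Gene groups read from the annotation after the induced genes had been seen are given as counts only. Of 35 tested genes annotated as nucleolar or for ribosome assembly, 13 were SS-induced and none SS-repressed by edgeR's quasi-likelihood test (none by DESeq2 or by edgeR's exact test, and 2 lower at an unadjusted p under 0.05). Examples are *FIB2*, a fibrillarin, at 1.28, *PWP2*, of the small-subunit processome, at 1.03, and *NOP56*, of box C/D snoRNPs, at 0.94. Of 108 tested genes with embryo-defective symbols, 18 were SS-induced, 10 of them SSTF, and none was SS-repressed (1 by edgeR's exact test, none by DESeq2, and 3 lower at an unadjusted p under 0.05). The embryo-defective genes gave 34 SS-induced, 11 of them SSTF, and 3 SS-repressed without WT dark replicate 2, and the nucleolar genes then gave 17 SS-induced and 2 SS-repressed. All 3 WHIRLY genes, for single-stranded DNA-binding proteins of plastids and mitochondria, were SSTF induced, *WHY1* at 1.03, *ATWHY2* at 1.42 and *WHY3* at 1.44. Pentatricopeptide repeat proteins, which bind organelle RNA, gave 5 SS-induced and 2 SS-repressed of 68 tested. This is 7.35% and 2.94%, against 3.17% and 2.91% of all genes tested. Without WT dark replicate 2 the counts were 10 and 6 of 68, against 1315 and 1388 of all 13398 genes tested. Of 13 tested mTERF proteins, which act in organelle gene expression, 1 was SS-induced and none SS-repressed (1 by DESeq2 and by edgeR's exact test, and 1 lower at an unadjusted p under 0.05), and without WT dark replicate 2 there were 2 SS-induced and 1 SS-repressed. Of 15 tested genes annotated as plastid transcriptionally active, which in part are those of the plastid transcription list, 6 were SS-induced and 1 SS-repressed, and 3 were SS-repressed without WT dark replicate 2. The repressed one was *PTAC16*, with 27.6, 29.9 and 30.1 CPM in WT dark linc and 75.6, 95.1 and 92.9 CPM in WT dark (log2 fold change −1.59, standard error 0.13, edgeR adjusted p = 8.93e-07).

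Plastid-encoded RNA is sampled poorly here, since the libraries capture polyA tails and plastid mRNAs carry few stable ones. All plastid-encoded loci together took 0.0969%, 0.0828% and 0.0534% of counts in WT dark linc and 0.141%, 0.149% and 0.171% in WT dark, with no overlap. Of 133 loci 18 had enough counts to be tested, of which 6 were repressed and 1 induced, all SSTF. Without WT dark replicate 2, 7 were repressed and 1 was induced. Whether polyadenylation of these RNAs differed between groups was not tested.

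*ndhC*, of the NADH dehydrogenase-like complex, had 4.78, 4.36 and 3.51 CPM in WT dark linc and 15.2, 20.1 and 19.6 CPM in WT dark (log2 fold change −2.13, standard error 0.17, edgeR adjusted p = 1.02e-06). *psbM*, a small subunit of photosystem II, had 18.22, 18.8 and 13.6 CPM in WT dark linc and 41.3, 123 and 58.4 CPM in WT dark, where replicate 2 was far above the others. *atpB* and *atpE*, which are transcribed together and encode ATP synthase subunits, both fell. *atpB* had 2.14, 1.56 and 0.994 CPM in WT dark linc and 14.5, 3.78 and 12.7 CPM in WT dark, and *atpE*, the most abundant of the 18, had 448, 349 and 221 CPM in WT dark linc and 919, 609 and 1079 CPM in WT dark. The other repressed transcripts were those of ribosomal proteins, *rpl32* at −1.44 and *rps18* at −1.11. *atpB* had too few counts to be tested in 2 of the 6 fits that left out a library.

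The induced transcript was *rpoA*, for the alpha subunit of the bacterial-type plastid polymerase. It had 84.7, 87.3 and 54.4 CPM in WT dark linc and 20.4, 44.7 and 21.8 CPM in WT dark (log2 fold change 1.39, standard error 0.25, edgeR adjusted p = 0.00272). Of the 4 mitochondrion-encoded loci tested, none was SS by edgeR's quasi-likelihood test, DESeq2 or edgeR's exact test, and 1 was lower at an unadjusted p under 0.05. Of the 4, 1 was SS-repressed without WT dark replicate 2.

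**Figure D4:**
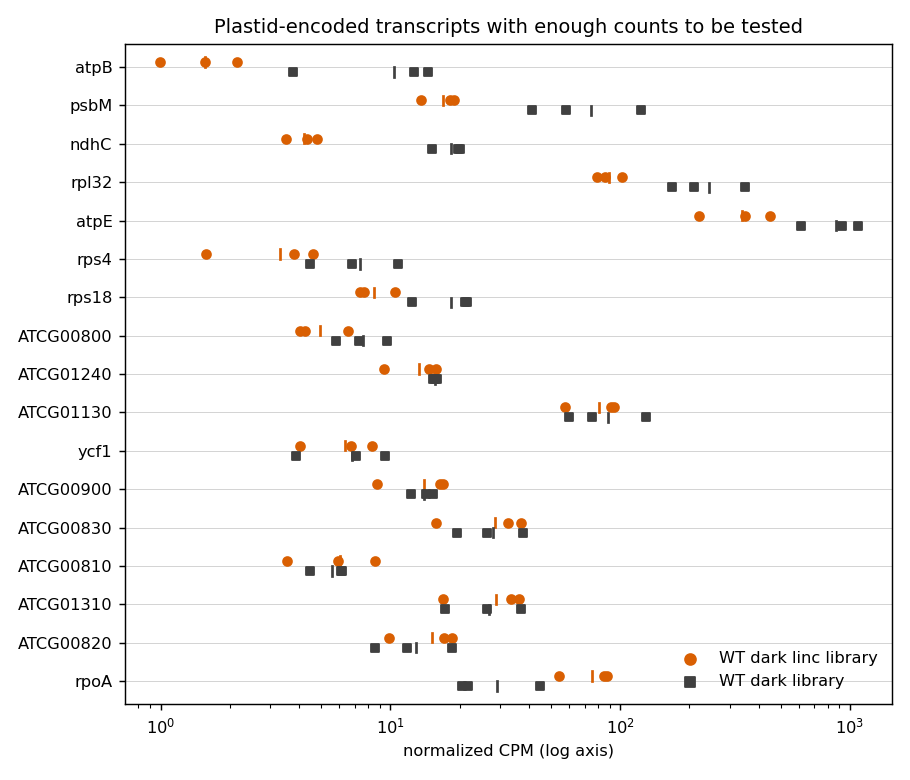
Normalized CPM on a log axis of 17 of the 18 tested plastid-encoded transcripts, ordered by log2 fold change, with WT dark linc libraries as circles above WT dark libraries as squares and short bars at group means. From *atpB* down to *atpE* the groups are apart, most of the middle rows overlap, and *rpoA* at the bottom is higher in all 3 WT dark linc libraries.

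The listed pathways outside the chloroplast had at most 2 SS genes each, in lists so short that 1 gene is a larger share than the 2.91% repressed and 3.17% induced over all genes. Mitochondrial dysfunction markers, which rise when mitochondrial respiration is blocked, had 1 SS-induced of 10 tested, *UPOX* (AT2G21640), with 31.99, 36.3 and 34.2 CPM in WT dark linc and 14.5, 21.4 and 20.3 CPM in WT dark (log2 fold change 0.87, standard error 0.15, edgeR adjusted p = 0.00175). The alternative oxidase *AOX1A* had 67.2, 82.8 and 70.1 CPM in WT dark linc and 56.6, 63.3 and 53.4 CPM in WT dark (log2 fold change 0.35, edgeR adjusted p = 0.123, and 0.0270 without WT dark replicate 2). Of 5 tested cytosolic heat shock genes none was SS by edgeR's quasi-likelihood test, DESeq2 or edgeR's exact test (1 was higher at an unadjusted p under 0.05), and 2 were SS-induced without WT dark replicate 2.

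Antioxidant enzymes had 1 SS member of 12, the plastid peroxiredoxin *2CPB* at −0.48 (edgeR adjusted p = 0.0397), which was SS in 2 of 6 fits that left out a library, without WT dark replicate 1 and without WT dark replicate 2. The abundant *CAT3* had 3742, 3447 and 3077 CPM in WT dark linc and 4742, 2962 and 3967 CPM in WT dark, and the groups overlapped. Abscisic acid and cold or drought markers gave *RD29A*, SS-induced, with 51.5, 70.7 and 46.8 CPM in WT dark linc and 25.3, 32.6 and 27.4 CPM in WT dark (log2 fold change 0.99, standard error 0.16, edgeR adjusted p = 0.000961), and *KIN2*, SS-repressed at −0.41 (edgeR adjusted p = 0.0446, and SS in 1 of 6 fits that left out a library, without WT dark replicate 2). The other 13 tested markers of that list were not SS. Without WT dark replicate 2, SS-induced members numbered 3 for the mitochondrial markers and 3 for the abscisic acid list. Of the abscisic acid genes, 1 was SSTF. In that fit 3 antioxidant genes were SS-repressed and 1 SS-induced, against 1388 and 1315 of all 13398 genes tested.

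For hormone and growth lists, edgeR's quasi-likelihood test called no gene, against counts at an unadjusted p under 0.05 of 0 lower and 1 higher of 15 for ethylene and the apical hook, 3 lower and 0 higher of 16 for auxin, 3 lower and 0 higher of 15 for cell wall genes and 1 lower and 0 higher of 7 for salicylic acid and jasmonate. DESeq2 called 1 cell wall gene and none of the others, and edgeR's exact test called none. Medians of these lists were 0.03, −0.08, 0.03 and −0.07. *XTH4*, a wall-loosening enzyme, was at −0.43 (edgeR adjusted p = 0.232) and at −0.65 without WT dark replicate 2 (edgeR adjusted p = 0.00398). Without that library 3 ethylene genes were SS-induced, and 2 salicylic acid or jasmonate genes were SS-repressed. Auxin and cell wall genes each then gave 4 SS-repressed and 1 SS-induced. Over all 13398 genes tested in that fit, 1388 were SS-repressed and 1315 SS-induced.

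The genes of reserve and nitrogen metabolism called on all 6 libraries were lower under lincomycin. *APL1* (AT5G19220), a subunit of the enzyme that makes the starch precursor ADP-glucose, had 14.6, 15.0 and 15.1 CPM in WT dark linc and 43.1, 56.9 and 56.9 CPM in WT dark (log2 fold change −1.81, standard error 0.14, edgeR adjusted p = 4.70e-07), and *APE2*, the triose phosphate exporter of the chloroplast envelope, changed by −1.44 (edgeR adjusted p = 4.45e-05). No other of the 8 tested genes of starch and plastid sugar transport was SS, and 1 more was SS-repressed without WT dark replicate 2, which makes 3. *NIA2*, nitrate reductase, was SS-repressed at −0.79 (edgeR adjusted p = 0.0110, and 0.0560 without WT dark linc replicate 2), and *ASN1*, an asparagine synthetase of darkness, at −0.54 (edgeR adjusted p = 0.0131, and 0.0616 and 0.0561 without WT dark linc replicate 1 and 3). Among 6 dark and sugar-starvation markers, *BCAT-2*, of branched-chain amino acid breakdown, was SS-repressed at −0.55 (edgeR adjusted p = 0.0220), but not without WT dark linc replicate 3 or WT dark replicate 3, and 3 of the 6 were SS-repressed and 1 SS-induced without WT dark replicate 2. Isocitrate lyase, *ICL*, which turns seed oil into sugar, had 4358, 6748 and 5870 CPM in WT dark linc and 2530, 5586 and 3467 CPM in WT dark, so that the groups overlapped through WT dark replicate 2 (log2 fold change 0.55, edgeR adjusted p = 0.184, and 0.91 with an edgeR adjusted p of 0.000399 without that library). Of the 7 tested genes of seed storage and oil mobilization, none was SS by edgeR's quasi-likelihood test, DESeq2 or edgeR's exact test, 2 were higher at an unadjusted p under 0.05, and 2 were SS-induced without WT dark replicate 2. Of 4 tested flavonoid genes none was SS by any of these tests or at an unadjusted p under 0.05.

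The response in WT was set beside that of *pifq*, with the difference tested as an interaction over all 12 libraries. Each response is relative to the level without lincomycin in the same genotype. A more negative response therefore need not be a lower level under lincomycin. In *pifq* dark, *LHCB1.3* had the most counts of any gene, 1.97% to 3.41% of a library, which it had in no WT dark library. Among 14040 genes, 527 (3.75%) responded lower, that is more negatively, in *pifq* and 172 (1.23%) higher. Of the 135 SSTF repressed genes of WT, 59 had a lower and 8 a higher response in *pifq*, and of the 73 induced ones 3 had a lower and 1 a higher response. Of 37 genes for photosystems, electron transport and ATP synthase, 24 had a lower response in *pifq*, but within it photosystem I gave 2 of 12 and photosystem II 12 of 13. Calvin cycle and carbonic anhydrase genes gave 18 of 22 and photorespiration 12 of 15. Plastid ribosomal proteins, with no called change in WT, gave 23 of 36, at a median of −0.90 on the log2 scale in *pifq*. With library totals in place of TMM, the numbers over all genes were 270 lower and 1544 higher, with the median of all genes shifted by 0.33, so these directions are relative to the TMM scale. The number of higher responses was 101 and 109 without replicates 1 and 2 of *pifq* dark linc and 107 without WT dark linc replicate 3.

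**Figure D5:**
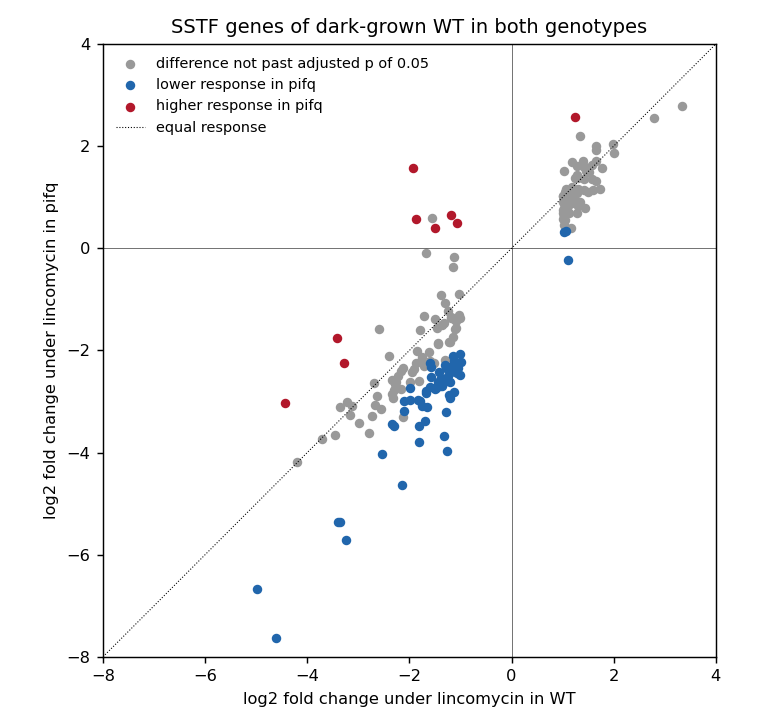
Log2 fold change under lincomycin in WT (horizontal axis) and *pifq* (vertical axis) of the 208 SSTF genes of WT, from the fit of 12 libraries, coloured by whether the interaction was called (adjusted p up to 0.05), with a dotted line of equal response. Of the repressed genes 59 lie below the line with a called difference and 8 above it, and the induced genes lie close to it, with 4 called.

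Antenna genes went both ways, with 10 lower and 2 higher responses in *pifq* of 20. *LHCB2.3* changed by −7.63 in *pifq* and by −4.62 in WT, a difference of −3.01 (standard error 0.32, edgeR adjusted p = 3.49e-05). *LHCB1.4* changed by −5.71 in *pifq* and by −1.11 in WT, a difference of −4.60 (standard error 0.46, edgeR adjusted p = 1.88e-05). *LHCB1.3*, in contrast, changed by −3.02 in *pifq* and by −4.44 in WT, a difference of 1.41 (standard error 0.38, edgeR adjusted p = 0.0353). Examples with higher levels under lincomycin are *PTAC10* and *UPOX*. *PTAC10* changed by 1.92 in *pifq* and 1.65 in WT in this fit, a difference of 0.27 (standard error 0.21, edgeR adjusted p = 0.630), and *UPOX* by 2.82 in *pifq* and 0.88 in WT, a difference of 1.94 (standard error 0.20, edgeR adjusted p = 2.03e-05).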

How the data were processed

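The 6 WT libraries, and the 6 *pifq* libraries for the interaction, were polyA 3′-end capture libraries, each sequenced as technical duplicates that the authors held as 1 column. The authors aligned reads with Bowtie 0.12.7, with 1 mismatch allowed, to the TAIR10 representative transcriptome, kept those in the 500 bases at the 3′ end of the coding strand, and deposited raw counts per locus for 33601 loci. Of these, 32835 matched the RefSeq annotation of TAIR10.1, which gave names, windows upstream of genes, and similar 3′ ends (at least 90% identity over at least 100 of the last 500 bases).

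Counts were fitted with edgeR 4.0.16 (R 4.3.3) by the quasi-likelihood test with TMM factors and Benjamini-Hochberg adjustment over the genes tested, which were those reaching 5 CPM or more in 2 or more of the libraries fitted. Standard errors are the log2 fold change over the square root of F. Which edgeR test the authors ran is not given in the sources used here. Groups came from the sample labels. Labels call the replicates biological, but do not say whether they came from separate sowings, so p-values measure the spread between these samples. The script was tested on simulated data. DESeq2 1.42.0, edgeR's exact test, other scaling, filters, samples and a replicate block were run as alternatives.

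Genes were named by a rule. It took the 10 largest SSTF changes in each direction among genes whose groups do not overlap. It took the 5 most abundant SSTF genes in each direction, markers, and genes the study measured. It also took up to 4 SS members of each list (the 2 members highest in WT dark where fewer than 2 were SS). Other members are given as examples or exceptions, chosen after their values were seen. The comparison, the members and the lists were chosen with earlier results of these data known. Lists were described by counts and medians, with no set test. Some genes are not reported here.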

Additional observations from a re-analysis of the deposited data

Results flagged for a closer look

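For 29 of the named genes, the change under lincomycin differed between genotypes by the interaction test of edgeR (adjusted p up to 0.05). Values below are the log2 fold change in *pifq* minus that in WT, so that a negative value is a more negative response in *pifq*. WT dark linc and WT dark enter this difference with the same values as the comparison in WT, so it is not independent of it.

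Antenna genes were at −4.60 for *LHCB1.4*, −3.01 for *LHCB2.3*, −2.00 for *LHCB1.2* and −1.95 for *LHCB1.1*, and at 1.41 for *LHCB1.3*, and these *LHCB1* copies share similar 3′ ends. Other thylakoid genes were at −2.49 for *CRRL*, −1.29 for *OHP2*, −1.21 for *OHP1*, −1.13 for *NDF6* and −1.07 for *PETE2*. Carbon fixation genes were at −1.70 for *CA1*, −1.26 for *GAPA-2*, −1.19 for *RBCS1A* and −1.18 for *RBCS2B*, and photorespiration genes at −1.65 for *GGT1*, −1.23 for *SHM1*, −1.22 for *HPR* and −1.07 for *PGLP1*. Pigment genes were at −1.30 for *PSY*, −1.27 for *CAO* and −1.02 for *CLA1*.

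Among the remaining genes, *BBX15* was at 1.66 and *UPOX* at 1.94, whereas *2CPB* was at −1.12, *RD29A* at −0.94, *ACO4* at −1.11, *NIA2* at −1.13 and *ASN1* at −1.06. *PIF1*, at −3.22, is one of the genes mutated in *pifq*, so that its transcript there is that of a mutant allele.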

How the results depend on the processing

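None of the 83 named genes that were SS changed direction in any of the 15 alternatives for the comparison in WT, while 8 of the 33 that were tested and not SS did, all with a log2 fold change of at most 0.13 in size. Of the 83, 9 lost their call in at least 1, each of them among the 6 fits that left out a library. The numbers of SSTF genes were 135 repressed and 73 induced, and moved to 213 and 132 with no filter on low counts, which tests more genes. Leaving out a library gave 116 to 195 repressed and 44 to 99 induced. SS genes, 392 and 426 on all libraries, numbered 599 and 649 by edgeR's exact test and 829 and 870 with no filter, and leaving out a library gave 203 to 1388 repressed and 157 to 1315 induced. For the interaction, 527 lower and 172 higher, library totals in place of TMM gave 270 and 1544, and leaving out a library gave 101 to 214 higher. Where no cause is given, the cause was not tested.

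With the replicate number as a block, SS genes numbered 1012 and 1020, SSTF genes 153 and 74, and interaction calls 701 lower and 264 higher. The deviations of same-numbered WT dark linc and WT dark libraries correlated at 0.523, 0.306 and −0.049, with a mean of 0.260. Libraries of different number correlated at −0.497 to 0.132, with a mean of −0.127. Deviations were taken from the mean of each group, so the values for different numbers follow in part from those for the same number. The 2 means are therefore not independent. Replicates 1 and 2 deviated with their own number and replicate 3 did not. Pairing by number was therefore neither assumed nor excluded, and the block entered no result of the report. Replicate 3 with lincomycin correlated best with WT dark replicate 2, at 0.132.

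Depth limits genes near 5 CPM, which is where few counts decide whether a gene is tested. Most plastid-encoded loci fell under that filter.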

Other observations

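Of the 135 SSTF repressed genes of WT, 6 had log2 fold changes above 0 in *pifq*, and they were picked for that difference after their values were seen. *GSTU12*, a glutathione transferase, had 1.48, 1.56 and 2.11 CPM in WT dark linc and 10.8, 3.04 and 5.77 CPM in WT dark, with a log2 fold change of 1.57 in *pifq*. *CYP81F2*, a cytochrome P450 of indole glucosinolate synthesis, had 2.39, 1.4007 and 2.40 CPM in WT dark linc and 8.18, 3.37 and 5.77 CPM in WT dark, with a log2 fold change of 0.39 in *pifq*. The groups did not overlap in WT for either gene, and WT dark replicate 2 was the lowest WT dark library for both. The differences between the genotypes were 3.502 and 1.89 (edgeR adjusted p = 0.0155 and 0.0383).

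*AT1G26380*, *PXMT1* and *GSTU10* were 3 of the others. Their log2 fold changes in WT were −1.88, −1.19 and −1.06 (edgeR adjusted p = 0.000448, 0.00213 and 0.00559), against 0.58, 0.64 and 0.49 in *pifq*. The differences between the genotypes were 2.45, 1.83 and 1.55 (edgeR adjusted p = 0.00611, 0.00973 and 0.00973). *CCOAMT*, annotated as a caffeoyl-CoA methyltransferase, had a log2 fold change of −1.57 in WT (edgeR adjusted p = 0.00596) and of 0.59 in *pifq*, and the difference of 2.15 missed the threshold (edgeR adjusted p = 0.0764). None of the 6 genes passed the test within *pifq*, where the edgeR adjusted p lay between 0.102 and 0.539.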
